A study of Bos taurus with 11 samples.

Results

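Interferon signalling factors and RNA sensors are the genes through which a cell notices viral or displaced RNA and answers interferon. Of the 8 genes named for this group, 5 had a probe set in the platform annotation and were measured: STAT2, IRF9, IRF7, DHX58 and EIF2AK2. Members were found by gene symbol alone, as probe sets listed with exactly 1 of these symbols, and where a gene had several, the brightest on average across the 11 arrays was read. The 5 genes have 8 probe sets of the 24016 that are not array controls, and the whole table holds 9155 genes with a symbol. IRF1, RIGI (formerly DDX58) and IFIH1 had no probe set listed and were not analysed here.

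Interferons bind receptors at the cell surface, whose Janus kinases phosphorylate STAT proteins. STAT2 and IRF9 are subunits of a complex called ISGF3, which then enters the nucleus and switches on interferon-stimulated genes. RNA helicases of the RIG-I family and the kinase EIF2AK2 detect double-stranded RNA, and IRF7 drives transcription of interferon genes downstream of such sensors. Several of these factors are themselves interferon-stimulated, so their transcripts are read as part of the response. In ruminants the endometrium is known for a strong interferon response to the signal of the early embryo, interferon tau.

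Endometrium, the lining of the uterus, was collected at slaughter from Holstein-Friesian cows that had calved before (parity 4.7 on average, 6477 ± 354 kg of milk in the lactation before), 14 ± 0.4 days after calving. Negative energy balance is the deficit of early lactation, when milk takes more energy than feed brings in. The severe group (n = 6) received a daily ration of silage limited to 25 kg plus 4 kg of concentrate, with milking 3 times daily, and the mild group (n = 5) had free access to silage with 8 kg of concentrate and was milked 1 time daily, both from day 2 after calving. Cows were blocked before calving and assigned at random. All cows had 1 array each, and feed and milking frequency differed together, so their parts cannot be told apart.

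Signals are taken as log2 values from robust multi-array averaging, abbreviated RMA, and 1 unit is a doubling. Arrays correlated at 0.948 to 0.991. Signals under 5.52, below which the dimmest 40% of probe sets lie on average, are called dim. The mean 3' minus 5' difference of 6 control transcripts, a sign of RNA quality, ran from 0.42 to 0.82 in severe and from 0.45 to 0.65 in mild cows, and severe 4 was the lowest at 0.42. Markers of stromal fibroblasts averaged 11.33 and 11.26 and those of epithelium 7.99 and 8.02 in severe and mild cows, whereas 6 of 6 trophoblast genes were dim. Epithelial markers ran from 7.16 in severe 5 to 8.46 in severe 4, which was the highest cow in 6 of the 11, and from 7.71 to 8.38 in mild cows. Of the 11, 6 were higher and 5 lower in severe cows, with a median difference of 0.08, or -0.05 without severe 4. At an unadjusted limma p under 0.05, 0 were higher and 1 lower. Without mild 2 and severe 5 these were 3 and 0, where 5.38% of all probe sets were higher at that threshold. Smooth muscle markers had a median difference of -0.28, with 5 of 6 lower in severe cows and 0 at an unadjusted p under 0.05. The part of these cell types in the members' differences was not tested. Over all probe sets 0 of 24016 (0%) passed limma at an adjusted p under 0.05, the smallest adjusted p being 0.177, and 3085 (12.8%) had an unadjusted p under 0.05. Of those 1673 (6.97% of all probe sets) were higher in severe cows.

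The question put to the members was whether severe negative energy balance went with other levels of the interferon machinery than mild. STAT2 and IRF9, both subunits of ISGF3, were higher in 5 of 6 severe cows than in any mild cow, with group means 1.43-fold and 1.71-fold apart, but neither passed the adjusted threshold. IRF7 and DHX58 were also higher on average, with overlapping groups, and EIF2AK2 showed no clear difference in either direction. Severe 4 had the highest signal of all 11 cows in 4 of the 5 genes, where that cow was highest in 10.6% of all genes. Of the 5 genes 4 were higher in severe cows, as were 48.9% of all genes. By limma 0 of the 5 passed at an adjusted p under 0.05. An unadjusted p under 0.05 was found for 2, both higher, against a background of 6.97% of probe sets. Of the 9155 genes, read like the members by 1 probe set each, 774 were higher at that threshold. In 0 of the 5 were all severe cows above all mild cows, as they were for 0.662% of probe sets. The median difference was 0.50 log2 units, against -0.01 over all probe sets, and it was 0.20 without severe 4.

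**Figure D1:**
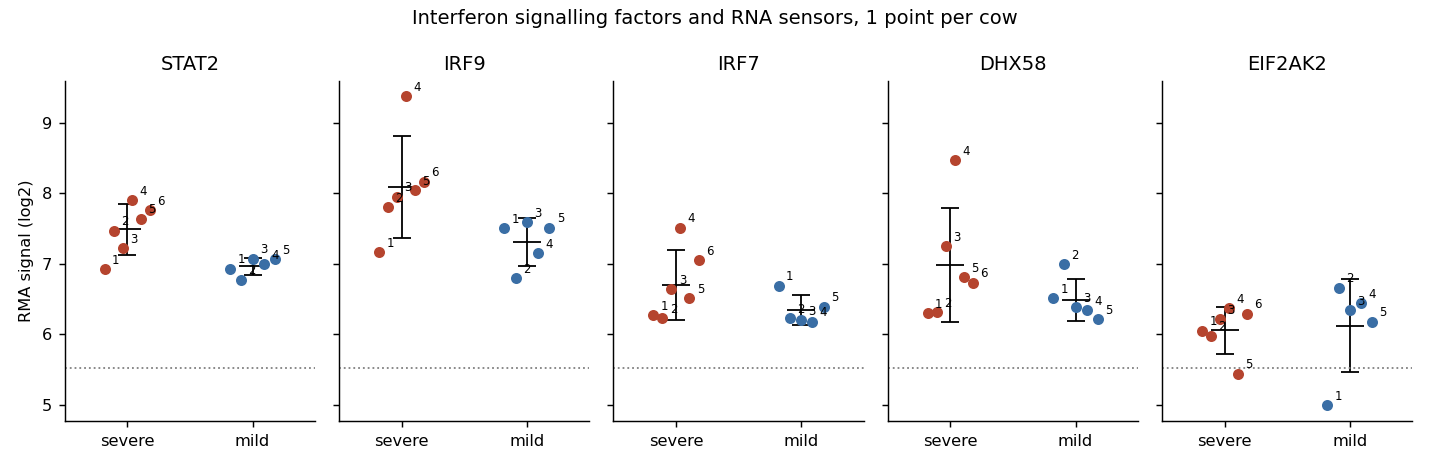
RMA signal (log2, vertical axis) of the 5 genes in severe and mild cows, 1 point per cow with its number, bars at the mean ± SD, and a dotted line at the limit of dim signals, 5.52. STAT2 and IRF9 have 5 of 6 severe cows above all mild cows, and severe 4 stands highest in every panel but that of EIF2AK2.

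STAT2, which brings the transactivation domain to ISGF3, has 1 probe set. In severe cows its signal ran from 6.92 in severe 1 through a median of 7.55 to 7.90 in severe 4, and in mild cows it was 6.93, 6.77, 7.07, 6.99 and 7.06. The mild cows lay within a narrow band, and severe 1 alone among severe cows lay inside it. STAT2 averaged 7.48 ± 0.36 in severe and 6.96 ± 0.12 in mild cows (SD, n = 6 and 5). The difference of 0.52 ± 0.16 (SE) is 1.43-fold, with a 95% interval from 1.13 to 1.82. Limma gave an adjusted p of 0.306, and the exact two-sided permutation p over all 462 splits of the cows was 0.0238. Of all probe sets 2.22% had a smaller unadjusted p. STAT2 kept an unadjusted limma p under 0.05 in every alternative run, with differences from 0.44 to 0.63 and adjusted p between 0.0985 and 0.527, and without severe 1 its adjusted p was 0.0985.

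IRF9, the subunit of ISGF3 that recognises the DNA element in interferon-stimulated promoters, also has 1 probe set and was the member with the largest difference. Its signal in severe cows ran from 7.16 in severe 1 through a median of 8.00 to 9.37 in severe 4, and in mild cows it was 7.50, 6.79, 7.59, 7.15 and 7.51. As for STAT2, the groups overlapped through severe 1 alone, and mild 2 was the lowest cow. The mean was 8.08 ± 0.73 in severe and 7.31 ± 0.34 in mild cows (SD, n = 6 and 5). The difference of 0.77 ± 0.32 (SE) is 1.71-fold, with a 95% interval from 1.06 to 2.75 (limma adjusted p = 0.355, exact permutation p = 0.0390). Without severe 4 the difference was 0.51 ± 0.21 (SE), and 4 of the 5 severe cows left lay above all mild cows. IRF9 no longer had an unadjusted limma p under 0.05 without severe 6 (0.0519), without mild 2 (0.0794), without mild 4 (0.0615) or without mild 2 and severe 5 (0.0996).

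IRF7, the factor that drives interferon alpha genes and is itself induced by ISGF3, was read from the brightest of its 3 probe sets. In severe cows the signal ran from 6.23 in severe 2 through a median of 6.57 to 7.51 in severe 4, and in mild cows it was 6.69, 6.23, 6.20, 6.18 and 6.39. Severe 4 and severe 6 (7.05) lay above all mild cows, and the other 4 severe cows lay among them. The mean was 6.70 ± 0.50 in severe and 6.34 ± 0.21 in mild cows (SD, n = 6 and 5), a difference of 0.36 ± 0.22 (SE, limma adjusted p = 0.502). The fold was 1.29, with a 95% interval from 0.927 to 1.79 that includes no difference, and the exact permutation p was 0.169. Without severe 4 the difference was 0.20 ± 0.16 (SE).

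Of the RNA helicase sensors only DHX58 was measured, by 1 probe set. DHX58, also called LGP2, binds double-stranded RNA but lacks the signalling domains of RIGI and IFIH1, whose activity it tunes. In severe cows its signal ran from 6.30 in severe 1 through a median of 6.77 to 8.47 in severe 4, and in mild cows it was 6.51, 6.99, 6.38, 6.34 and 6.21. Severe 4 and severe 3 (7.25) lay above all mild cows, and mild 2, the lowest cow for STAT2 and IRF9, was the highest mild cow here. DHX58 averaged 6.98 ± 0.81 in severe and 6.48 ± 0.30 in mild cows (SD, n = 6 and 5), a difference of 0.50 ± 0.34 (SE, limma adjusted p = 0.562). The fold was 1.41 with a 95% interval from 0.839 to 2.37, the exact permutation p was 0.240, and the difference without severe 4 was 0.20 ± 0.20 (SE).

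EIF2AK2 encodes PKR, a kinase that double-stranded RNA activates and that stops translation by phosphorylating the initiation factor eIF2. Its brighter probe set ran in severe cows from 5.44 in severe 5 through a median of 6.13 to 6.37 in severe 4, and in mild cows it was 4.99, 6.66, 6.34, 6.44 and 6.18. The groups overlapped, mild 1 lay far below the other mild cows, and mild 1 and severe 5 were dim. The mean was 6.06 ± 0.33 in severe and 6.12 ± 0.65 in mild cows (SD, n = 6 and 5). The difference of -0.06 ± 0.27 (SE) had a limma adjusted p of 0.941 and an exact permutation p of 0.825. The 95% interval of the fold, 0.633 to 1.45, allows a change of moderate size in either direction, and without mild 1 the difference was -0.35.

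The other probe set of EIF2AK2, which the annotation pairs with the gene's RefSeq mRNA, told a different order of cows. In severe cows it ran from 4.98 in severe 2 through a median of 5.75 to 6.49 in severe 4, and in mild cows it was 5.87, 4.98, 5.87, 5.01 and 5.71. Mild 1, the lowest cow on the brighter probe set, was among the highest mild cows on this one, and mild 2, the highest there, was the lowest mild cow. Across the 11 cows the 2 probe sets had a Pearson r of -0.29 (permutation p = 0.387) and a Spearman rho of -0.23 (permutation p = 0.501). The difference on this probe set was 0.24 ± 0.27 (SE, limma adjusted p = 0.735), opposite in sign to the brighter one, with 2 cows of each group dim. Which of them tracks the transcript was not tested, so EIF2AK2 has no settled direction in these data.

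Of the other IRF7 probe sets, the brighter followed the brightest of all closely (Pearson r = 0.92, permutation p = 9e-05, adjusted p = 0.00072, and r = 0.90 without severe 4 and severe 6), with a difference of 0.33 ± 0.18 (SE, limma adjusted p = 0.472). The third was dim in 6 of 6 severe and 5 of 5 mild cows and differed by 0.01 ± 0.12 (SE, limma adjusted p = 0.971). With the 3 averaged, the IRF7 difference was 0.23.

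**Figure D2:**
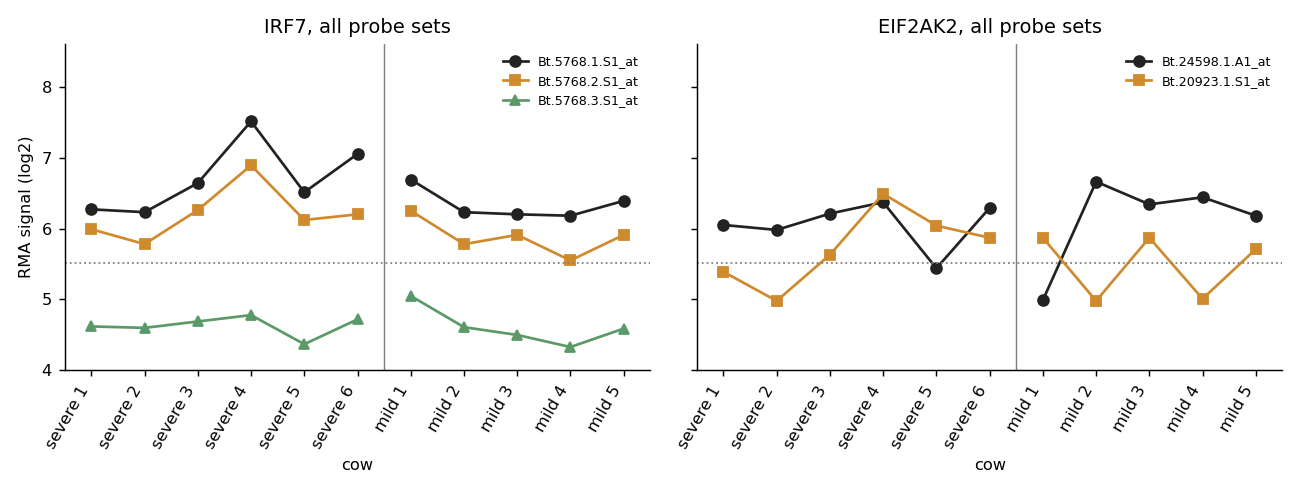
RMA signal (log2, vertical axis) of each probe set of IRF7 and EIF2AK2 in the 6 severe cows and then the 5 mild cows, 1 marker per cow and the brightest probe set of each gene in black, with a dotted line at the limit of dim signals, 5.52. The brighter IRF7 probe sets move in parallel and the third is dim in all cows, whereas the EIF2AK2 probe sets cross in severe 4, severe 5 and mild 1.

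The spread of 4 members was wider in severe than in mild cows, in part through severe 4. In severe cows the SD was 0.36 for STAT2, 0.73 for IRF9, 0.50 for IRF7 and 0.81 for DHX58, and in mild cows it was 0.12, 0.34, 0.21 and 0.30 in the same order. These severe SDs exceeded those of 85.0%, 96.7%, 91.9% and 97.6% of all probe sets in severe cows, and the mild SDs exceeded 26.8%, 83.5%, 61.4% and 79.2% in mild cows. Without severe 4, a setting chosen after seeing the data, the severe SD was 0.34 for STAT2, 0.39 for IRF9, 0.33 for IRF7 and 0.40 for DHX58, so that IRF9 and DHX58 came near their mild SDs. EIF2AK2 ran the other way, with 0.33 in severe and 0.65 in mild cows, and the mild SD was 0.20 without mild 1. A difference in spread was not tested.

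How far the members moved together was asked over all 10 pairs of the 5 genes, across the 11 cows, with p adjusted over the 10 pairs. STAT2 and IRF9 were the closest pair, with a Pearson r of 0.90 (permutation p = 3e-05, adjusted p = 0.0003) and a Spearman rho of 0.96 (permutation p = 2e-05, adjusted p = 0.0002). Their r was 0.86 without severe 4 and severe 6, the cows farthest from the median of STAT2, and 0.84 with the group means removed. Within the 6 severe cows alone it was 0.84 (exact permutation p = 0.0292). Severe cows with more STAT2 transcript thus also had more IRF9 transcript. Across both groups the relation did not rest on severe 4 and severe 6, whereas within severe cows alone it was not tested without them.

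The other pairs among STAT2, IRF9, IRF7 and DHX58 had a lower r without the extreme cows. By Pearson's r 5 of the 10 pairs had an adjusted p under 0.05, and by Spearman's rho 1 did, that of STAT2 with IRF9. IRF9 with IRF7 had an r of 0.87 (permutation p = 0.00123, adjusted p = 0.00615) and a rho of 0.71 (permutation p = 0.0185, adjusted p = 0.0924). IRF7 with DHX58 had an r of 0.80 (permutation p = 0.0116, adjusted p = 0.0289) and a rho of 0.49 (permutation p = 0.130, adjusted p = 0.326). IRF9 with DHX58 had an r of 0.76 and STAT2 with IRF7 of 0.73 (permutation p = 0.0242 and 0.00783, adjusted p = 0.0483 and 0.0261), with rho 0.45 and 0.56 (permutation p = 0.164 and 0.0762, adjusted p = 0.328 and 0.254). STAT2 with DHX58 had an r of 0.56 (permutation p = 0.0572, adjusted p = 0.0954), or 0.11 without severe 4 and severe 6. Within the 5 mild cows, too few for a correlation, mild 2 was the lowest in STAT2 and IRF9 and the highest in DHX58. Without the 2 cows farthest from the median, severe 4 among them each time, r was 0.66 for IRF9 with IRF7, 0.47 for IRF7 with DHX58, 0.67 for IRF9 with DHX58 and 0.21 for STAT2 with IRF7. The brighter EIF2AK2 probe set had an r between -0.05 and 0.22 with the other 4 genes. Its other probe set, compared after its values were seen in a family of 8 pairs, had an r of 0.78 with IRF9 and 0.77 with IRF7 (permutation p = 0.00325 and 0.00369, adjusted p = 0.00984 for both), rho being 0.64 and 0.72 (permutation p = 0.0400 and 0.0163, adjusted p = 0.0640 and 0.0327). Without the 2 cows farthest from the median these r were 0.49 and 0.63. With STAT2 and DHX58 the same probe set had an r of 0.60 and 0.56 (permutation p = 0.0524 and 0.0661, adjusted p = 0.0881 for both), or 0.29 and 0.095 without the 2 cows.

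**Figure D3:**
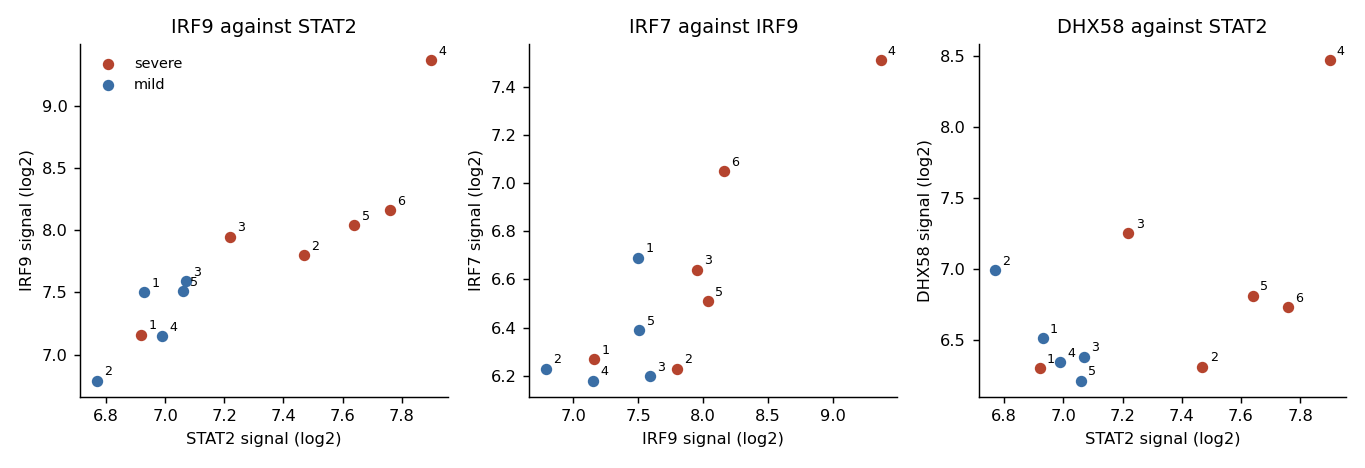
Signals (log2) of IRF9 against STAT2, IRF7 against IRF9 and DHX58 against STAT2, 1 point per cow with its number, severe cows in red and mild cows in blue. IRF9 is high where STAT2 is high (r = 0.90), and severe 4 is the highest cow in all 3 plots.

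The genes whose pattern was most like the mean of the 5 members were chosen by the highest Pearson r over the 11 cows, and their r is a description with no test. They were IFI44L, KNG1, PMVK, DTX3L, MX2 and PML, with r from 0.949 to 0.965 and rho from 0.727 to 0.918. Among the members themselves, STAT2, IRF9, IRF7 and DHX58 had an r from 0.81 to 0.92 with this mean. The brighter EIF2AK2 probe set had 0.27, so the likeness is not to EIF2AK2. IFI44L, MX2, a GTPase that blocks viruses, DTX3L, a ubiquitin ligase, and PML, the scaffold of nuclear bodies, are known interferon-stimulated genes. PMVK is phosphomevalonate kinase of cholesterol synthesis, and KNG1 is kininogen, the precursor of bradykinin. Severe 4 was the highest cow in all 6. MX2 was at 9.39 in severe 4, from 5.04 to 6.90 in the other severe cows, and dim in 5 of 5 mild cows, from 4.71 to 5.26. KNG1 was at 6.63 in severe 4 and dim in the other 10 cows. Without severe 4 and severe 6, the cows farthest from the median of the members' mean, r was 0.92 for IFI44L, 0.89 for MX2, 0.84 for KNG1, 0.81 for DTX3L and PML, and 0.63 for PMVK.

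**Figure D4:**
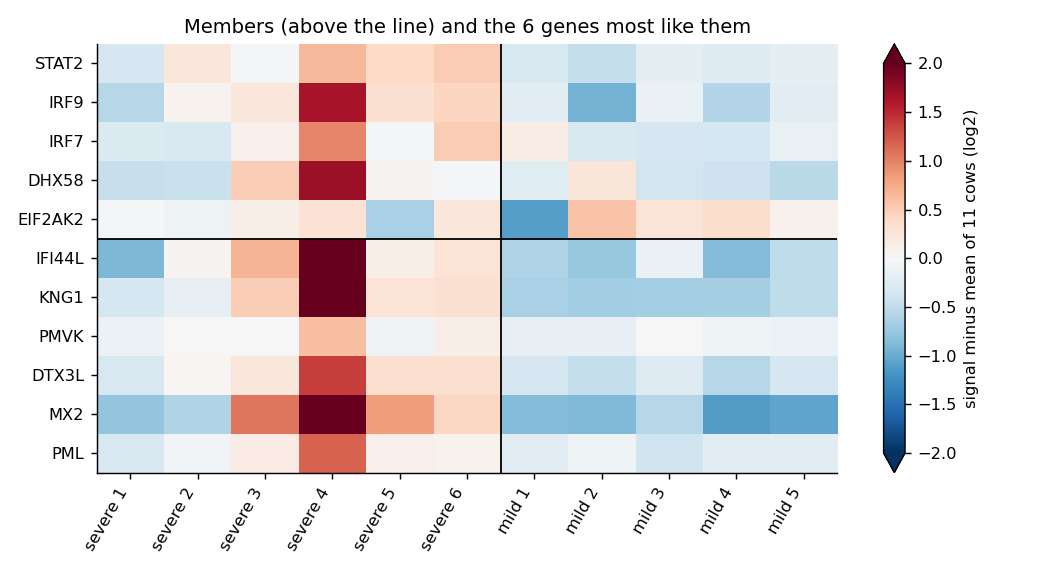
Signal minus the mean of the 11 cows (log2, colour) for the 5 members, above the line, and the 6 genes most like their mean, by cow, severe cows left and mild cows right. Severe 4 is the warmest column in 10 of the 11 rows, and EIF2AK2 is the exception.

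The rest of the interferon pathway was read from lists chosen with earlier results of these data known. No gene of any list passed at an adjusted p under 0.05, so the counts given are at an unadjusted limma p under 0.05. Their background in either direction is 12.8% of all probe sets, or 1457 of the 9155 genes read by 1 probe set each. The lists are read in the latter way. For counts of genes higher in severe cows, 48.9% of all genes is the background, here and for the cell markers. Of 14 ligand symbols listed only 4 had a probe set and were measured, so most interferon genes were not seen here. The measured ligands came out dim: IFNG, IFNB1, IFNT2, an interferon tau gene, and IFNAC, an interferon alpha gene, all averaged under 5.52. Of these 4, 0 had an unadjusted p under 0.05. The IFNG mean was 3.54 ± 0.17 in severe cows against 3.38 ± 0.24 in mild cows, and that of IFNB1 was 3.40 ± 0.12 against 3.49 ± 0.12 (SD, n = 6 and 5), near the lowest value of the table, 2.63. IFNT2 differed by 0.06 ± 0.07 (SE). Differences this close to the floor are compressed and give no size.

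Receptor chains and kinases upstream of STAT2 were bright. All 5 measured were higher in severe cows, with a median difference of 0.34, and 3 had an unadjusted p under 0.05. JAK1, the kinase shared by all interferon receptors, averaged 11.12 ± 0.18 in severe and 10.78 ± 0.15 in mild cows (SD, n = 6 and 5), a difference of 0.34 ± 0.10 (SE, limma adjusted p = 0.304). IFNAR2, the signalling chain of the type I receptor, differed by 0.37 ± 0.13 and IFNGR2, of the interferon gamma receptor, by 0.36 ± 0.14 (SE), though the other IFNGR2 probe set had the opposite sign.

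Among the other STAT factors 1 of 4 had an unadjusted p under 0.05. That was STAT4, which signals for interleukin 12 in lymphocytes and was dim on average, at 5.30 ± 0.92 in severe and 4.43 ± 0.21 in mild cows (SD, n = 6 and 5), with its other probe set opposite in sign. STAT6 differed by 0.23 and STAT5B by -0.05. Of the other IRF factors 4 of 4 were higher and 2 had an unadjusted p under 0.05. IRF5, a factor of myeloid and B cells, was 1.61-fold higher (0.69 ± 0.25, SE, limma adjusted p = 0.322), and IRF8, a factor of myeloid lineages, 1.56-fold (0.64 ± 0.24, SE, limma adjusted p = 0.332). IRF3, the constitutive relay of the RNA sensors, differed by 0.12 ± 0.11 (SE), or -0.00067 without mild 2 and severe 5.

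Adaptors and kinases that carry the sensors' signal differed little, with a median of 0.09 over 11 genes, 8 higher and 3 lower. MYD88, the adaptor of Toll-like receptors, had the smallest p, at 0.31 ± 0.13 (SE, limma adjusted p = 0.347), and was the 1 gene of the list with an unadjusted p under 0.05, AZI2 and TANK being at 0.20 and 0.22. Of 8 other nucleic acid sensors 5 were higher, with a median of 0.06. IFI16, a sensor of DNA and an interferon-stimulated gene, was 2.05-fold higher, at 8.76 ± 0.75 in severe and 7.72 ± 0.44 in mild cows (SD, n = 6 and 5, limma adjusted p = 0.308). TLR3, the endosomal sensor of double-stranded RNA, differed by 0.16 ± 0.10 (SE), with 1 of its 3 probe sets opposite in sign, and the helicase DDX1 by -0.11.

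Feedback inhibitors were higher in 10 of 10 genes, by 0.12 in the median, and 2 had an unadjusted p under 0.05. USP18, which removes ISG15 from proteins and blocks the receptor chain that STAT2 docks on, was 2.10-fold higher at 7.44 ± 1.03 in severe and 6.37 ± 0.15 in mild cows (SD, n = 6 and 5), a difference of 1.07 ± 0.41 (SE, limma adjusted p = 0.338), or 0.71 without severe 4. The deubiquitinase CYLD was at 0.36 and ATG5 at 0.14. Around PKR, PRKRA, a protein activator of the kinase, was lower in severe cows by -0.44 ± 0.18 (SE, limma adjusted p = 0.346), with the same sign on all of its 3 probe sets. ATF4, whose translation eIF2 phosphorylation favours, was higher by 0.32 ± 0.11 (SE, limma adjusted p = 0.310), and its target DDIT3 by 0.33. Of the 10 genes 1 in each direction had an unadjusted p under 0.05, with a median of 0.07.

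The effectors that ISGF3 switches on had the largest median difference of the 10 pathway lists. Of 25 type I interferon effectors 25 were higher in severe cows, with a median of 0.75, and 13 had an unadjusted p under 0.05. On average 4 of the 25 were dim, and the smallest difference counted as higher was 0.0055. SAMD9 was at 6.88 ± 1.02 in severe and 5.18 ± 0.49 in mild cows (SD, n = 6 and 5), EPSTI1 at 8.06 ± 0.96 and 6.91 ± 0.18, and DTX3L at 8.81 ± 0.57 and 8.09 ± 0.12, with adjusted p from 0.285 to 0.310 by limma. Severe 4 was the highest cow in 23 of the 25, and its mean over the list was 9.08, against 6.60 to 7.89 in the other severe cows and 6.65 to 7.06 in mild cows. Without severe 4, 24 of 25 were higher, with a median of 0.52 and 10 at an unadjusted p under 0.05. Without mild 2 and severe 5 the median was 0.77 and the count at that threshold was 5. Of all probe sets 5.31% were higher at that threshold without severe 4, and 5.38% without mild 2 and severe 5.

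The genes that interferon gamma and IRF1 act on had their highest mean in another cow, severe 5. Of 17 genes, 3 of them dim on average, 17 were higher, with a median of 0.54 and 5 at an unadjusted p under 0.05. Its mean over the list was 9.13, above that of severe 4, and mild cows ran from 7.69 to 8.41. B2M, a subunit of MHC class I molecules, differed by 0.55 ± 0.20, CASP1, an inflammatory caspase, by 0.61 ± 0.23 and PSMB9, of the immunoproteasome, by 0.79 ± 0.34 (SE), with adjusted p from 0.331 to 0.371 by limma. Without mild 2 and severe 5 the median was 0.26 and 0 of 17 had an unadjusted p under 0.05. With those cows left out, receptors and kinases kept a count of 1 of 5, and 0 genes in each of the other lists but the type I effectors were higher at that threshold.

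**Figure D5:**
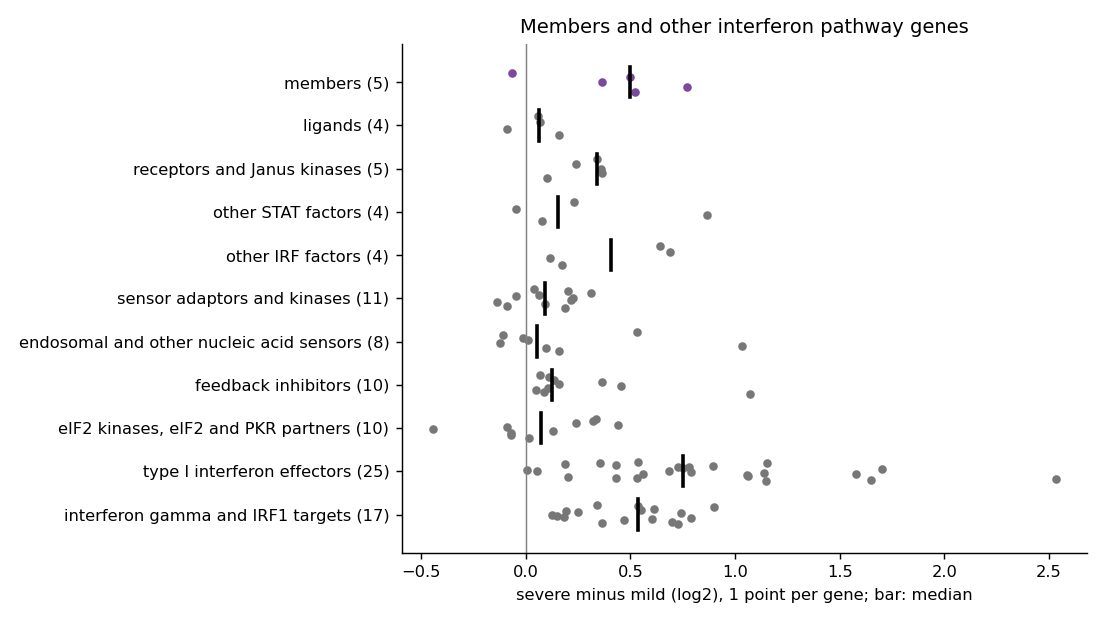
Difference severe minus mild (log2, horizontal axis) for the 5 members and the measured genes of 10 pathway lists, 1 point per gene, with a bar at the median and the number of genes in brackets. Effectors of type I interferon spread farthest to the right (median 0.75), and ligands and sensor adaptors lie near 0 (medians 0.07 and 0.09).

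Markers of most leukocyte types were also higher in severe cows, though none passed at an adjusted p under 0.05. PTPRC, the common leukocyte antigen CD45, averaged 9.04 ± 0.76 in severe and 7.95 ± 0.55 in mild cows (SD, n = 6 and 5), a 2.12-fold difference (limma adjusted p = 0.308). The mean level of 6 pan-leukocyte markers ran from 8.47 to 10.64 in severe and from 7.63 to 8.89 in mild cows, with 6 of 6 higher and a median of 1.31. Counts at an unadjusted p under 0.05 were 7 of 8 for neutrophils, 4 of 8 for macrophages, 9 of 14 for T and NK cells and 6 of 6 for B and plasma cells, each of them higher, whereas of 5 dendritic cell genes 0 were so in the higher and 1 in the lower direction. Without mild 2 and severe 5 these counts were 6, 0, 3 and 0 for the other 4 lists, where 5.38% of all probe sets were higher at that threshold. Severe 4, the cow highest in most members, was highest in the macrophage and neutrophil list means (10.41 and 9.29) but at 9.78 in pan-leukocyte markers, below severe 2 at 9.91, severe 6 at 10.03 and severe 5 at 10.64. Severe 1, which lay among mild cows for STAT2 and IRF9, was the lowest severe cow in pan-leukocyte markers, at 8.47. Severe 3, at 8.67, was also within the mild range in these markers, but lay above all mild cows for STAT2, IRF9 and DHX58. The part of leukocytes in the differences of the members was not tested, and in whole tissue a change in cell numbers and a change in transcript per cell cannot be told apart.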

How the data were processed

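The authors made the deposited signals with RMA, per the submitters' processing notes. The notes name no scale, and the deposited values were taken as log2 from their range, 2.63 to 14.6. No source used here gives the RMA version or a filter. All arrays share a median of 6.20, so a shift of all transcripts cannot be seen, and the number of arrays limits the precision. Of 24128 probe sets 112 controls were left out. In the platform annotation of 2016, 13292 had 1 symbol, 86 several and 10638 none listed, and 13263 matched a RefSeq gene table (ARS-UCD2.0) that renamed 0.

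The severe minus mild difference was fitted with limma 3.58.1 (lmFit, then eBayes) under R 4.3.3, and its two-sided p-values were adjusted by Benjamini-Hochberg across the 24016 probe sets, with 0.05 as the threshold. The fit was tested on simulated data. All adjusted p-values of single genes come from limma. Single genes were also compared by exact permutation over the 462 ways to divide the cows (smallest possible p = 0.00216), and correlations by 100000 permutations, in Python 3.11.15. Named genes are the members, the 3 with the smallest p in each pathway list, PTPRC and the 6 most like the members. Members and lists were chosen with earlier results of these data known. Alternatives were a filter on the dimmest 40%, a second quantile normalization, a common median, array weights, robust eBayes with a trend, cows left out, other thresholds and the mean over probe sets. EIF2AK2 by its other probe set was added after seeing the data. The labels name no batch. Replicate numbers only name the cows.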

Additional observations from a re-analysis of the deposited data

Results flagged for a closer look

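In each group of each gene or probe set named, 88 groups in all, the highest and lowest cow were compared with the nearest other cow, and 9 stood apart by Dixon's criterion, which marks about 5% of groups by chance. Among the members 1 did: EIF2AK2 in mild 1, at 4.99 on the brighter probe set, the nearest mild cow being at 6.18. Severe 4 stood apart from the other severe cows for KNG1 at 6.63, PML at 8.09 and PMVK at 7.01. These genes were chosen for their likeness to the members, which severe 4 leads. Mild 5 stood apart from the other mild cows for IRF5 at 6.88, for DDX1 at 9.52 and for KNG1 at 3.46, a dim signal. IFNT2 was at 5.25 in severe 2, also dim, and STAT6 at 8.05 in mild 1.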

How the results depend on the processing

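By limma the count of members at an adjusted p under 0.05 was 0, and it was 0 in 21 of 21 alternatives, thresholds of 0.10 and 0.25 included. Over all probe sets that count was 0, ranged from 0 to 16 with each cow left out (16 without severe 1 and 2 without severe 3), and was 48 at an adjusted p under 0.25. The count of members at an unadjusted p under 0.05 was 2, ranged from 1 to 2 with each cow left out, and was 1 without mild 2 and severe 5, 1 at a threshold of 0.01 and 3 with array weights. Of all probe sets, 4.96% to 8.71% were higher at an unadjusted p under 0.05 with each cow left out. This share was 5.38% without mild 2 and severe 5 and 8.03% with array weights. The median difference kept its sign in 19 of 19 alternatives, from 0.20 without severe 4 to 0.63 without severe 1. STAT2, IRF9, IRF7 and DHX58 kept their direction in 18 of 18 alternatives each. The difference of EIF2AK2, -0.06, turned to 0.059 without severe 5, 0.0706 without mild 2, 0.015 without mild 4, 0.19 without mild 2 and severe 5, 0.0900 with its probe sets averaged and 0.24 on its other probe set, an alternative added after seeing the data. With single cows left out it ranged from -0.35 to 0.0706, and the cause was not tested. Without mild 2 and severe 5 the differences of STAT4, TANK, CYLD and DDIT3 were 0.54, 0.07, 0.20 and 0.21. No paired analysis was possible because the labels give no replicate numbers that pair cows across groups.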
